A study of Mus musculus with 2 samples.

Results

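The genes described here carry the family names of the motile axoneme, of flagellar transport and assembly, and of spermatogenesis. They were taken from an RNA immunoprecipitation sequencing (RIP-seq) peak list of BUD31 by symbol: protein-coding rows whose gene symbol starts with Dnah, Dnai, Dnal, Cfap, Spag, Spata, Ift and a digit, Bbs, Tekt, Akap, Tnp or Ccdc. The rule uses no measured value. It found 487 peaks in 51 genes, among 14411 protein-coding rows and 16331 peaks in all. The reference annotation holds 211 protein-coding genes of these families on the 15 chromosomes that have a peak, and 160 of them have none. The 211 include Ccdc53 and Ccdc64, which the annotation names Washc3 and Bicdl1 and which entered only through a peak row. Chromosomes 3, 6, 7, 9, 13 and 14 were not analysed here, and whether the list is complete is not known. A shared prefix does not make a shared function: 104 of the 211 genes are Ccdc genes, named only for a coiled coil, and the Tnp prefix also takes in Tnpo2, a nuclear import receptor. Of the 4 genes taken as markers, Dnah14 and Spag16 had peaks inside the gene, Tnp2 lay under a peak credited to its downstream side, and Akap4 had peaks only far outside it.

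BUD31 is a protein of the spliceosome. One library held the RNA that an anti-BUD31 antibody pulled down and the other was input, for which 10% of total RNA was taken. Both came from germ cells of C57BL/6J mouse testis at postnatal day 14, released by enzymatic digestion, with no other treatment or allele named. The comparison asks which RNAs came down with BUD31, and its outcome is a list of genome intervals with a gene and an annotation class, without a read count, fold or score.

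The axoneme is the microtubule core of motile cilia and of the sperm tail. Dynein heavy chains (Dnah) form the motor arms on its outer doublets, central pair proteins such as Spag16 and Spag6l set the beat pattern, and intraflagellar transport (Ift) trains carry building blocks along it. Transition proteins (Tnp) replace histones in the elongating spermatid before protamines do, and Akap4 is the main protein of the fibrous sheath around the tail. In the first wave of spermatogenesis, the most advanced germ cells at this age are in meiotic prophase, and the tail is built later, in spermatids.

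With 1 library a group there was no replicate check and no test was made. The depth of both libraries is unknown. Intervals given are 95% intervals, Wilson for shares and order statistics for medians, and they reflect only how many genes or peaks were counted, neither of which are replicates. Every peak is a whole number of bins of 200 to 230 bp on the chromosomes with a member. In material from many cells, fewer cells of a type and less RNA per cell cannot be told apart, and a gene without a peak cannot be called absent.

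The sequences at the starts of these genes are given first, because one motif of ciliary genes recurs in them. The X-box, the binding motif of RFX factors, which regulate ciliary genes, was searched as GTT, any base, C, 3 or 4 bases of any kind, G, any base and AAC. Either spacing is its own reverse complement, so 1 search reads both strands, and the spacings cannot both match from the same base. The window was 250 bases before to 50 after a RefSeq start (GRCm38.p6), which 41 of the 51 genes with a peak have. A match stood in 8 of these 41 (19.5%, interval 10.2% to 34.0%), in 16 of 132 family genes without a peak (12.1%) and in 246 of 11393 other coding genes (2.16%). The matches are shown as 30 bases of reference sequence, 5′ to 3′ on the strand of the gene, with the matched letters in capitals:
Dnah7a, chr1:53706820-53706849, minus strand: gccagtttGTTGCTTAGCAACgaatcgacc
Dnah7b, chr1:46066821-46066850, plus strand: gccagtttGTTGCTTAGCAACgaatcgacc
Dnah7c, chr1:46425441-46425470, plus strand: tccagtttGTTGCTTAGCAACgaatcgacc
Spag16, chr1:69826859-69826888, plus strand: ggcaacgcGTTGCCGTAGTAACtgcggacg
Ift57, chr16:49699226-49699255, plus strand: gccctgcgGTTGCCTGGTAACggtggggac
Ccdc60, chr5:116289002-116289031, minus strand: ggcgtccgGTTGCCAGGTAACcgagcgtgc
Ccdc160, chrX:52791147-52791176, plus strand: tccgcctgGTTGCTAGGCAACagtgcggcc
Ccdc175, chr12:72185022-72185051, minus strand: gcgtcgtcGTTGCCCTGGCAACagtgttcc

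The 3 Dnah7 genes share the same matched letters, so they are copies and not separate examples. Lined up on the match without gaps, their windows were 68.5% identical between Dnah7a and Dnah7b over 267 bases, 65.3% between Dnah7a and Dnah7c over 288 bases, and 65.9% between Dnah7b and Dnah7c over 255 bases. The match of Ccdc160 lies under its own peak. The others lie outside, at 213 bp from the nearest peak of the same gene in Spag16, 341 bp in Dnah7b and 946 bp in Ift57, and at 2560 to 7392 bp in the remaining 4. The palindrome TGACGTCA, the full cAMP response element bound by the CREM factor of spermatids, stood in 3 of the 41 windows (7.32%, in Spata7, Spag6l and Ift57), in 4 of 132 family genes without a peak (3.03%) and in 280 of 11393 other coding genes (2.46%). A match describes letters only and shows no binding.

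Family genes had a peak in 51 of 211 cases (24.2%, interval 18.9% to 30.4%). The background over all 14867 coding genes was 18.1%, and the other coding genes gave 2635 of 14656 (17.98%). Most genes without a peak lie where the list is thin for every gene. On 8 chromosomes (1, 5, 8, 10, 12, 16, 18 and X) at least 10% of coding genes have a peak, and the background there was 34.5%. Family genes there had a peak in 50 of 113 cases (44.2%, interval 35.4% to 53.4%), against 2478 of 7239 other coding genes (34.2%, interval 33.1% to 35.3%). On the other 7 chromosomes the background was 2.1%, and 1 of 98 family genes (Dnah8) had a peak, against 157 of 7417 others (2.12%). Counted by gene number, so that genes listed under an older symbol enter too, the family share on the 8 chromosomes was 55 of 113 (48.7%, interval 39.7% to 57.8%). Ccdc53 and Ccdc64 count as family genes only because a peak row carries that symbol. This raises the family shares over all chromosomes and over the 8. In the shares by symbol, 5 family genes with coding rows under another symbol count as having no peak, which lowers these shares.

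The genes of these families that have a peak are long, with a median span of 74.3 kb against 37.0 kb for other coding genes with a peak. On the 8 chromosomes, the share with a peak was therefore set out in 5 classes of gene span. The classes were cut to hold equal numbers of coding genes over all chromosomes with a peak. In class 1, the shortest, the share was 2 of 15 family genes (13.3%) against 7.60% of 1211 others. In class 2 both were at 22.7%, and in class 3 the family had 36.4% against 35.4%. In class 4 it was 11 of 20 (55.0%, interval 34.2% to 74.2%) against 46.4%. In class 5, the longest, it was 28 of 45 (62.2%, interval 47.6% to 74.9%) against 849 of 1684 (50.4%, interval 48.0% to 52.8%). Within each class the interval of the family genes takes in the value of the others. Counted by gene number class 5 had 31 of 45 (68.9%, interval 54.3% to 80.5%), an interval above the 50.4% of the others. Both class 5 counts include Ccdc53 and Ccdc64, which are family genes only because a peak row carries that symbol. Their entry raises both shares. Shares without Ccdc53 and Ccdc64 were not computed, and the difference from the others was not tested.

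**Figure D1:**
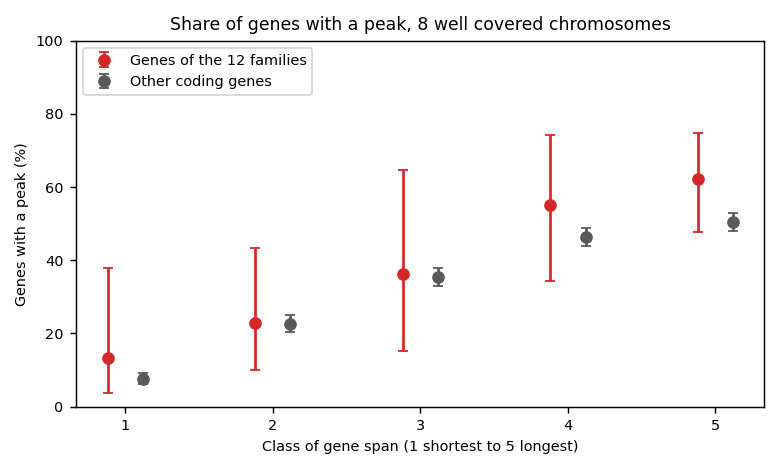
Share of coding genes with a peak (percent, y axis) by class of gene span (x axis, 1 shortest to 5 longest) on the 8 well covered chromosomes, for family genes and for other coding genes, with Wilson 95% intervals as bars. Both rise with span, and in class 5 the family genes stand at 62.2% and the others at 50.4%.

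Peaks were held by few genes. Among the 51 genes, 11 (21.6%) had 1 peak, 31 had 2 to 9 and 9 (17.6%) had 10 or more. Those 9 held 354 peaks (72.7%). Of other coding genes with a peak, 32.2% had 1 peak, and the 13.6% with 10 or more held 52.8% of the peaks. The median of the family genes was 3 peaks (interval 3 to 5), against 2 (interval 2 to 3) for other coding genes with a peak. The higher count did not hold per length. The median was 7.27 peaks per 100 kb (interval 5.24 to 10.08), against 8.92 (interval 8.38 to 9.33) for the others. The 5 genes with the most peaks, Spag16, Dnah14, Dnah7c, Dnah7a and Dnah7b, held 295 peaks (60.6%), and all 5 are on chromosome 1, with 11 of the 51 genes and 335 of the 487 peaks. The shares of classes and widths over all member peaks are for that reason also given without these 5.

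**Figure D2:**
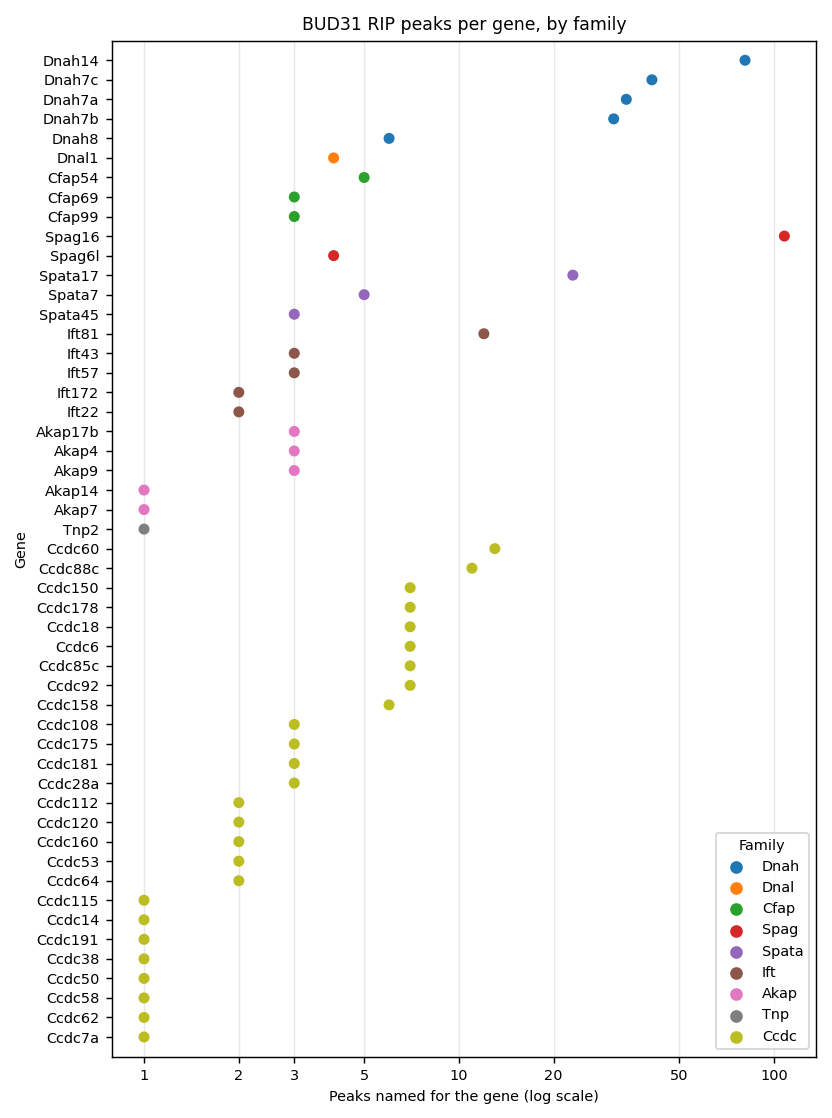
Number of peaks (x axis, log scale) of each family gene with a peak (y axis), 1 point a gene, grouped and coloured by family. Spag16 has 108 peaks and Dnah14 81, and 42 of the 51 genes have fewer than 10.

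Of the axonemal dynein heavy chains, 5 of 11 had a peak, 4 of the 6 on well covered chromosomes. They held 193 peaks (39.6% of all member peaks), 178 in introns and 15 in exons. Dnah14 had 81 peaks over 238 kb, 72 in introns and 9 in exons, with a median width of 820 bp and a widest peak of 7380 bp. Its peaks were narrow and dense. They came to 34.0 per 100 kb, and the share of the gene under a peak was 38.9%. On chromosome 1, 31 coding genes of at least 200 kb outside these families had a peak, with a median of 6.48 peaks per 100 kb and of 6.33% of the gene under a peak. Dnah14 exceeded 30 of the 31 in peaks per 100 kb and 26 in cover. The exon peaks of Dnah14 had a median width of 410 bp and reached 2050 bp, and 4 of the 9 were 1 bin (205 bp) wide. The first peak starts 16.7 kb into the gene: of 10 equal segments from 5′ to 3′, segment 1 was covered to 16.3%, segment 5 to 55.9%, segment 7 to 51.6% and segment 9 to 61.3%.

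Dnah7a, Dnah7b and Dnah7c encode heavy chains of an inner dynein arm and are near copies of each other. How reads that fit several copies were counted is not given in the sources used here, so their values are uncertain one by one. Dnah7c had 41 peaks (38 intron, 3 exon) with a median width of 2665 bp over 41.9% of its 382 kb. Dnah7a had 34 peaks (32 intron, 2 exon), of 3793 bp in the median, over 48.2% of its 310 kb. Dnah7b had 31 peaks (30 intron, 1 exon), of 3075 bp in the median, over 53.1% of its 307 kb. The 3 genes differ from Dnah14 in the same way, with fewer and wider peaks and 10.08 to 10.96 peaks per 100 kb. None of their peaks was 1 bin wide, while 19 of the 81 in Dnah14 were. Cover was high in the middle of all 3 genes and, in Dnah7a and Dnah7b, low in the last segment. In segment 4 it was 77.5% in Dnah7a, 80.7% in Dnah7b and 63.3% in Dnah7c. In segment 10 it was 11.9% in Dnah7a, 22.4% in Dnah7b and 39.7% in Dnah7c, whose lowest value was 13.4% in segment 8.

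Dnah8, an outer arm heavy chain of the sperm tail, had 6 intron peaks of 600 to 1200 bp over 2.09% of its 249 kb. It lies on chromosome 17 and is the single family gene with a peak on a thinly covered chromosome. Dnah10 and Dnah11 had none on well covered chromosomes, nor did Dnah2, Dnah5, Dnah9 and Dnah17 on thin ones. Of the light and intermediate chains, Dnal1, an outer arm light chain, had 4 peaks over 71.5% of its 29.2 kb, 2 in introns and 2 in the 3′ UTR, and the widest spanned 13120 bp. Dnal4, Dnali1, Dnaic1 and Dnaic2 had none, and all 4 lie on thin chromosomes.

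**Figure D3:**
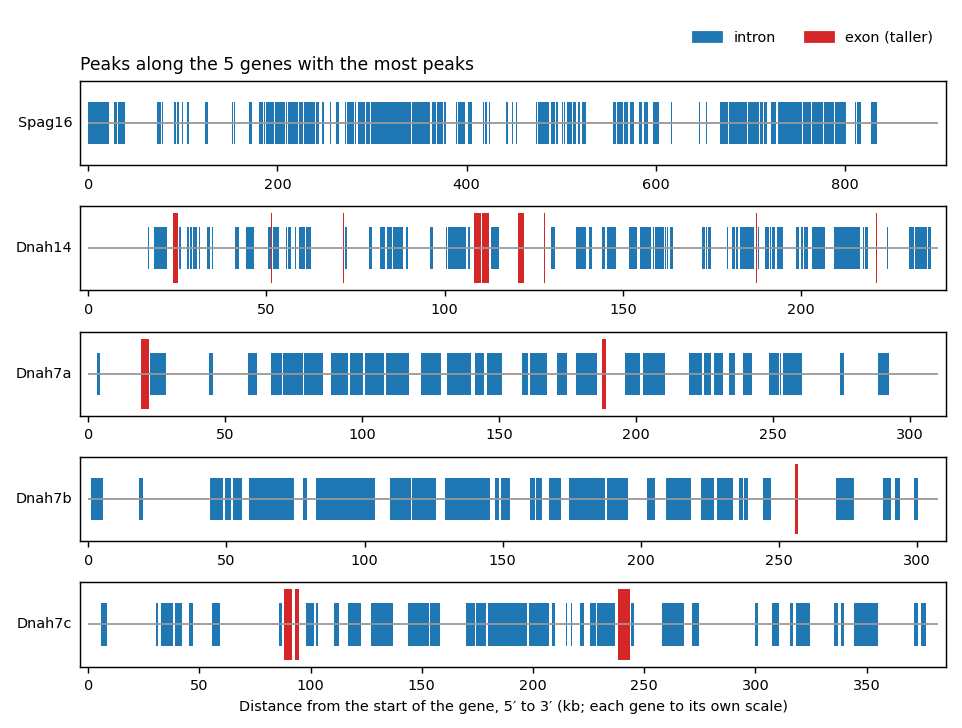
Peaks of the 5 genes with the most peaks along each gene (x axis, kb from the start of the gene, each gene to its own scale), drawn to width, with intron peaks in blue and exon peaks in red and taller. Dnah14 shows many narrow peaks, and Spag16 and the 3 Dnah7 genes show wide blocks.

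Among central pair and other sperm-associated antigens, 2 of 11 Spag genes had a peak, 2 of 4 on well covered chromosomes. Spag16, a central pair protein, had 108 peaks, the fourth highest count of any coding gene in the list, and all were annotated as intron. They covered 435 kb of its 898 kb (48.5%). The narrowest peak was 205 bp, the median 2768 bp and the widest 21730 bp, and 16 peaks of at least 8 kb held 191 kb (43.9% of the peak length). At 12.02 peaks per 100 kb the gene was above 22 of the 31 long genes on chromosome 1, and in cover above 28. The peaks were not spread evenly, with 90.1% of segment 4 and 80.8% of segment 9 under a peak, against 20.5% of segment 2 and 13.5% of segment 10. One peak of Spag16 each lies over the whole of an annotated snRNA gene (Gm23422), a snoRNA gene (LOC115487661) and a pseudogene (Gm17972), and without strand these cannot be told apart from Spag16. Spag6l, another central pair protein, had 4 intron peaks of 1000 to 3400 bp over 9.91% of its 76.3 kb. Spag11a and Spag11b, defensin-like epididymal genes, had none.

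**Figure D4:**
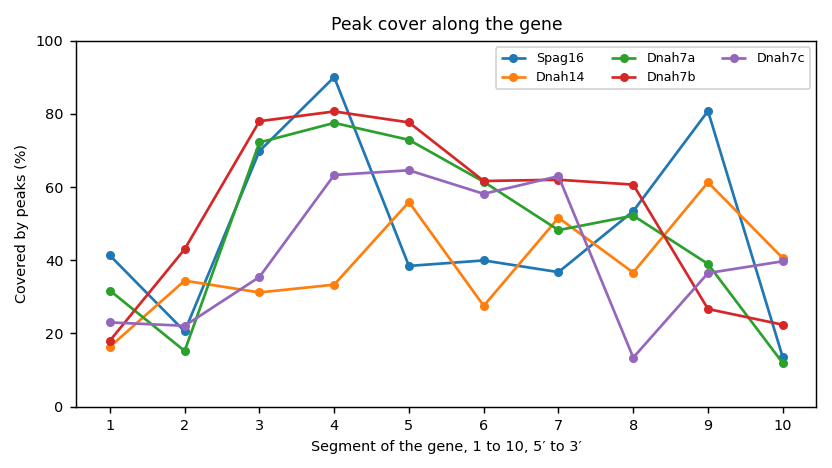
Share of the gene under a peak (percent, y axis) in each of 10 equal segments of the gene (x axis, 5′ to 3′) for the 5 genes with the most peaks. Cover of each of the 3 Dnah7 genes has its maximum in segment 4 or 5, and Spag16 has separate maxima of 90.1% in segment 4 and 80.8% in segment 9.

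Of the Cfap genes, named for cilia and flagella, 3 of 27 had a peak, 3 of 16 on well covered chromosomes, with 11 peaks in all. Cfap54, a central apparatus protein, had 5 intron peaks over 1.36% of its 308 kb. Cfap69, needed for the sperm tail, had 3 peaks over 12.2% of its 85.0 kb, 1 of them in the 3′ UTR. Cfap99 had 3 over 17.1% of its 42.1 kb, 1 of them in the 5′ UTR. The gene listed as Ccdc108, which the reference names Cfap65 and which is a sperm tail gene, had 3 peaks over 45.2% of its 33.6 kb, 1 in the 5′ UTR. At similar counts of 3 to 5 peaks, cover in these 4 genes thus ran between 1.36% and 45.2%.

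All 5 Ift genes on well covered chromosomes had a peak, and the 5 on thin ones (Ift20, Ift27, Ift52, Ift74 and Ift140) had none. Ift81, the tubulin-binding partner of Ift74, had 12 peaks, 10 in introns, 1 in an exon and 1 in the 3′ UTR. The median width of these was 200 bp, 8 of the 12 were 1 bin wide, and they covered 5.38% of its 74.3 kb. Of the intron peaks 2 lie over the pseudogene Gm18941. Ift57 (200 to 1400 bp) and Ift43 (205 to 820 bp) each had 3, all in introns, which covered 3.65% of Ift57 and 1.80% of Ift43. Ift172 had 2 intron peaks over 18.4% of its 38.1 kb, and Ift22 had 2 over 18.9% of its 6.36 kb. The 22 Ift peaks had a median width of 400 bp, which rested on Ift81, since the 10 peaks of the other 4 genes had a median of 800 bp (200 to 5400 bp). None of the 4 Bbs genes, whose products carry membrane proteins to cilia, and none of the 5 Tekt genes, which encode filaments inside the doublets, had a coding row. Of these 9 genes 3 lie on well covered chromosomes.

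The Spata genes share only their association with spermatogenesis, and 3 of 19 had a peak, 3 of 10 on well covered chromosomes. Spata17, a calmodulin-binding protein of the testis, had 23 peaks over 206 kb, 21 in introns and 2 in the 3′ UTR, with a median width of 410 bp and 6.27% cover. Its running numbers span 151 of the longer numbered set, and 128 of them are not carried by a peak of Spata17. In Spag16 43 of 151 are not its own. Whether such numbers are absent from the list or belong to rows of other genes was not tested. Spata7, a protein of the photoreceptor connecting cilium, had 5 intron peaks over 48.7% of its 41.7 kb, and its numbers have no gap. Spata45 had 2 intron peaks and 1 called intergenic that begins 44 bp past its end.

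For Akap4 and Tnp2 the annotation credits the gene with peaks whose class lies outside it. Akap4 was credited with 3 intergenic peaks of 920, 1380 and 1150 bp on the X chromosome, at 41.5, 50.5 and 67.5 kb past its end. All 3 lie nearer to Clcn5, a chloride channel gene, at 32780, 23350 and 6560 bp, and none of the 11095 bp of Akap4 is under a peak. Tnp2, a transition protein, had 1 peak, called downstream, of 4400 bp at chr16:10785201-10789600. It nevertheless covers all 721 bp of Tnp2, 945 bp before its start and 2734 bp past its end. It also covers 336 bp (19.4%) of Socs1, a cytokine signalling inhibitor, and 3343 bp over no annotated gene. The neighbouring protamine genes Prm1, Prm2 and Prm3 had no peak, nor did Tnp1 and Tnpo2 on their chromosomes.

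Of the other kinase anchors, Akap17b had 3 peaks (2 intron, 1 exon) over 90.1% of its 37.3 kb, 1 of them 23690 bp wide, the widest of any family gene. Akap9, an anchor at the centrosome and Golgi, had 3 peaks (2 intron, 1 exon) over 2.49% of its 152 kb. Akap7 had 1 intron peak of 800 bp. Akap14, an anchor in cilia, had 1 exon peak of 1150 bp that also runs over 456 bp of Nkap. Cover among the Akap genes with a peak thus ran between 0% in Akap4 and 90.1% in Akap17b, and 3 of the 8 Akap genes on well covered chromosomes (Akap5, Akap6 and Akap12) had no peak.

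The Ccdc genes gave 26 of 104 with a peak and 102 peaks, 26 of 57 on well covered chromosomes. Of 12 Ccdc genes on a list with ciliary or sperm tail roles, 3 had one, 3 of 7 on well covered chromosomes. Ccdc181, a sperm tail protein, had 3 intron peaks over 67.2% of its 12.3 kb, and Ccdc38, of the sperm tail, and Ccdc62, of the acrosome, had 1 intron peak each, of 1000 and 200 bp. The Ccdc genes with the most peaks have other or unclear roles. Ccdc60 had 13 (12 intron, 1 exon) with a median width of 800 bp over 7.48% of its 163 kb. Ccdc88c, a Wnt signalling protein, had 11 (9 intron, 1 exon, 1 3′ UTR) of 4100 bp over 39.5% of its 118 kb. Ccdc6, Ccdc18, Ccdc92 and Ccdc178 had 7 intron peaks each, Ccdc150 had 6 intron and 1 3′ UTR peak, and Ccdc85c had 4 intron, 1 3′ UTR and 2 intergenic peaks. Of the 2 called intergenic in Ccdc85c, 1 runs over the 5′ end of the gene. Ccdc158 had 6, all in introns.

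Among the Ccdc genes with fewer peaks, Ccdc160 had 2 (1 5′ UTR, 1 exon) over 66.8% of its 8.28 kb, and Ccdc115, an assembly factor of the vacuolar proton pump, had 1 intron peak over 61.4% of its 3003 bp. Ccdc175, Ccdc112, Ccdc53 (Washc3) and Ccdc64 (Bicdl1) had 2 or 3 peaks each, all in introns, over 1.195% to 11.4% of the gene. Ccdc120 had 2 intergenic peaks, 2317 and 4847 bp before its start, and none in the gene. Ccdc28a had 3, of which 1 lies in an intron, 1 over its start and 1 at 18.2 kb before it. Single intron peaks stood in Ccdc7a, Ccdc50, Ccdc58 and Ccdc191, and a single 3′ UTR peak in Ccdc14.

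Peaks over the start of a gene were few. Of the 41 genes with a start window, 8 (19.5%, interval 10.2% to 34.0%) have any peak over it, against a background of 16% of coding genes with a peak and a window. In Ccdc18 that peak is credited to its neighbour Tmed5. The other 7 are Tnp2, Spag6l, Cfap99, Ccdc160, Ccdc28a, Spata45 and Akap17b. The 250 bases before the start are shown for 3 of them, since these peaks lie at the edge of, or beyond, the transcribed gene. Capitals mark the bases under the peak, which takes in all 250 bases in Tnp2 and Ccdc160 and the last 37 in Spag6l:
Tnp2, chr16:10788656-10788905, minus strand: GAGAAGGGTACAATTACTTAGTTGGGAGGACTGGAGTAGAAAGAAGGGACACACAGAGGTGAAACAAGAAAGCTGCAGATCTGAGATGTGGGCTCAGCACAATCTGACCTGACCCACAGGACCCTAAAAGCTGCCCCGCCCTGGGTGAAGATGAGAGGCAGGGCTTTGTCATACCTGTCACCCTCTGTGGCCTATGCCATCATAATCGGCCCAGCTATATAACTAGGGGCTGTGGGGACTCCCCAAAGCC
Ccdc160, chrX:52790950-52791199, plus strand: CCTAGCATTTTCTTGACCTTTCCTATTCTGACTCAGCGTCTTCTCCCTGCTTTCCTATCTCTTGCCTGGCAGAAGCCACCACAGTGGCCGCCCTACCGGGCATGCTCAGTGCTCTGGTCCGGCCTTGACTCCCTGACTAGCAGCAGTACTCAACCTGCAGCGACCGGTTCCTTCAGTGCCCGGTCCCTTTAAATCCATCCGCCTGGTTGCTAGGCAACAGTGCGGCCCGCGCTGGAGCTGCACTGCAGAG
Spag6l, chr16:16829364-16829613, minus strand: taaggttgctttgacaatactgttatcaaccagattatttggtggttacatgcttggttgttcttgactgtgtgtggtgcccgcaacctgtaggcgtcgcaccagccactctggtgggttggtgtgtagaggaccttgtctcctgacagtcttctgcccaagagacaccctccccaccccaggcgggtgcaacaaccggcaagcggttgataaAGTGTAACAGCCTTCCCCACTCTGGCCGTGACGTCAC

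Over all member peaks, 441 of 487 were annotated as intron (90.6%, interval 87.6% to 92.8%), against 84.4% of 13924 peaks of other coding genes (interval 83.7% to 85.0%). This difference rested on the 5 genes with the most peaks, since without them the share was 83.9% (interval 78.0% to 88.4%). Exons and UTRs held 35 member peaks (7.19%) in 19 genes, against 9.96% of other peaks, and 15 of the 35 were exon peaks of Dnah genes. Without the 5 genes the share was 10.4% (20 of 192, interval 6.84% to 15.5%), on the other side of 9.96%. The classes outside the gene body held 11 member peaks (2.26%) against 5.68%, and without the 5 genes 5.73% (11 of 192). In the remaining 46 genes the class shares thus lie near those of other genes. In 27 genes every peak was an intron peak, and in 3 (Akap4, Ccdc120 and Tnp2) none had a gene-body class. Of the 487 peaks, 19 (3.90%) in 12 genes also lie over another annotated gene.

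Member peaks had a median width of 1435 bp (interval 1400 to 1800), against 1400 bp (interval 1380 to 1400) for other coding peaks. Without the 5 genes with the most peaks it was 1000 bp (interval 820 to 1200). Width differed by chromosome. On chromosome 1, which holds the 5 genes with the most peaks, member peaks had a median of 2050 bp (interval 1640 to 2255) against 1025 bp for other peaks. It was 800 bp against 800 bp on chromosome 5, 1000 bp against 1000 bp on 10 and 1200 bp against 1600 bp on 16. On X it was 1380 bp against 1840 bp, on 12 1845 bp against 2255 bp and on 18 1400 bp against 3400 bp. The 6 peaks on 17 had 800 bp against 600 bp, and the 1 peak on 8 had 2200 bp against 1200 bp. Peaks of at least 8 kb made up 7.19% of member peaks against 6.36% of others, but 2.08% (4 of 192, interval 0.813% to 5.23%) without the 5 genes. Of these wide peaks 31 of 35 lie on chromosome 1. They are in Spag16 (16), Dnah7c (7), Dnah7b (6), Dnah7a (2), Ccdc88c (2), Dnal1 (1) and Akap17b (1). Peaks of 1 bin made up 10.9% of member peaks against 13.2% of others, and 15.6% (30 of 192, interval 11.2% to 21.4%) without the 5 genes, so both width differences change direction when these genes are left out.

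**Figure D5:**
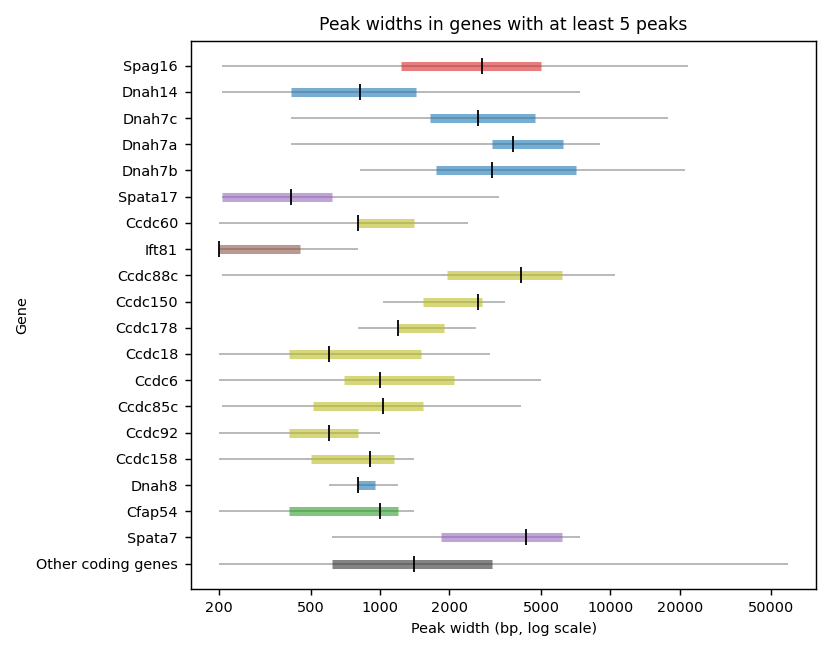
Peak width (x axis, bp, log scale) in each family gene with at least 5 peaks (y axis, most peaks at the top), with the range as a line, the middle 50% of peaks as a thick bar and the median as a tick, and peaks of other coding genes at the bottom. Median width is 3793 bp in Dnah7a, 2768 bp in Spag16, 820 bp in Dnah14 and 200 bp in Ift81, against 1400 bp for the other coding genes.

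Of the genes with a peak, 7 were covered over at least 50% of their span: Tnp2, Akap17b, Dnal1, Ccdc181, Ccdc160, Ccdc115 and Dnah7b (13.7%), against 18.3% of other coding genes with a peak. Median cover was 9.91% (interval 4.09% to 17.1%) against 13.6% (interval 12.6% to 14.7%). It was 7.24% without the 5 genes with the most peaks. Without the Ccdc and Akap genes it was 18.6% (interval 6.27% to 48.2%), a higher value than the 13.6% of the others, which its interval takes in. The 20 genes left then include the 5 with the most peaks. On chromosome 1 it was 45.2% over 11 genes (interval 13.4% to 61.4%) against 27.0% over 457, and on chromosome 5 it was 7.46% over 12 genes (interval 2.49% to 17.1%) against 9.18% over 470. Along the gene, the peaks of the 41 genes with a known strand fell evenly, with 34.7% in the 5′ part, 35.4% in the middle and 29.98% in the 3′ part of equal lengths, against 33.2%, 32.8% and 34.0% for other genes. Without the 5 genes these shares were 37.9%, 33.3% and 28.8% of 132 peaks.

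Genes of the same processes under other names had a peak in 12.5% (interval 3.50% to 36.0%) to 30.8% (interval 12.7% to 57.6%), by list. The intervals of the lists overlap. Over 5 lists together 20 of 95 genes had a peak (21.1%, interval 14.1% to 30.3%), an interval that takes in the background of 18.1%. For the counts on well covered chromosomes below, the background is 34.5%. Of axoneme and assembly genes 9 of 32 had one, 8 of 19 on well covered chromosomes. Ak7, an adenylate kinase of the axoneme, had 13 peaks over 24.8% of the gene, Dnaaf5, a dynein assembly factor, had 7, and Iqcg, of the nexin-dynein regulatory complex, had 3. Of intraflagellar transport genes outside the Ift names 4 of 13 had one, 4 of 6 on well covered chromosomes: Kifap3, the kinesin-2 accessory subunit, had 28 intron peaks with a median width of 410 bp, Wdr35 had 9 over 68.5% of the gene, Traf3ip1 had 6 and Cluap1 had 1. Of fibrous sheath and outer dense fibre genes 2 of 15 had one (Odf2, 4 peaks, and Sord, 2), both on a thin chromosome and 0 of 4 on well covered ones. Of spermatid chromatin genes and regulators 3 of 20 had one (Brwd1, 9, Crem, 7 over 65.8% of the gene, and Rfx4, 4), 3 of 11 on well covered chromosomes. Of acrosome and sperm membrane genes 2 of 16 had one, 1 of 4 on well covered chromosomes, and Catsperb, a subunit of the sperm calcium channel, had 43.

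Markers of stages and cells were set beside these values. Of late pachytene and round spermatid markers 1 of 5 had a peak (Piwil1, 4), of elongating spermatid markers 1 of 5 (Tnp2), and of markers of other ciliated and somatic testis cells 2 of 12 (Wt1 and Myh11, 1 intron peak each). On well covered chromosomes these were 1 of 2, 1 of 4 and 1 of 5. The list gives no level, so the part of these cells in the peaks of the family genes was not tested.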

How the data were processed

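The titles name 1 BUD31 library and 1 input library of mouse germ cells. TopHat2 2.0.13 and the mm10 build are named in the submitters' processing notes. How peaks were called, at what threshold, with what use of the input and against which annotation is not given in the sources used here. Per the file headers, the authors deposited 1 list of peaks with a running number, position, class, transcript, gene and kind of gene, and no count, fold, score or strand.

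Genes were matched by number to RefSeq GRCm38.p6, which is the mm10 assembly, and start sequences by symbol. A gene has a peak when a protein-coding row names it under a symbol of the rule. Covered length is the overlap of a gene's peaks with its span, from 1 bp. The genes listed as Ccdc53 and Ccdc64 were counted with the families, although their reference symbols differ. Genes with an older family symbol and no peak could not be found this way. Named genes are the 4 markers, up to 5 per family and 10 overall with the most peaks, those with exon, UTR or only outside peaks, and those at least 50% covered, with up to 4 per further list; 1 such gene is not reported here. Members and lists were chosen with earlier results of these data known. Alternatives changed the classes, chromosomes, widths, families and assignment of peaks, as given in the closing section. Functions were checked on made-up intervals. Python 3.11.15, numpy 2.4.6, pandas 2.3.3, scipy 1.17.1 and matplotlib 3.10.9 were used.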

Additional observations from a re-analysis of the deposited data

Results flagged for a closer look

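The rule reads symbols and protein-coding rows, and further rows of the same families lie outside it. Coding rows under another symbol numbered 48 in 5 genes, of which Cfap97d2, Cfap298 and Cfap47 had 1 each. Cfap299, listed as 1700007G11Rik, had 33 coding peaks, all intron, with a median width of 1000 bp over 8.71% of its 473 kb, more than any Cfap gene under the rule. Ccdc192, listed as 1700011I03Rik, had 12 coding intron peaks of 1000 to 19200 bp over 33.5% of its 197 kb. Rows typed ncRNA numbered 9 in 6 genes of the families, with 3 in Cfap44, 2 in Ccdc88c and 1 each in Bbs2, Ccdc162, Ccdc14 and Ccdc150. The coding rows entered only the counts stated by gene number, and the ncRNA rows entered none of the counts above. No control level exists for them in the list.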

How the results depend on the processing

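Of 78 recomputed values, 63 stayed inside the interval of the main value and 15 fell outside it. The share of family genes with a peak (24.2%) became 44.2% on well covered chromosomes and 18.5% with only the wider peaks, from the median of each chromosome up. The intron share (90.6%) became 93.1% with those wide peaks, 93.3% without Ccdc and Akap, 87.5% without Spata and Spag and 83.9% without the 5 genes with the most peaks. Median width (1435 bp) became 2870 bp with the wide peaks, by construction, 1380 bp without Spag16, 1200 bp without Dnah7a, Dnah7b and Dnah7c, and 1000 bp without the 5 genes. Median cover (9.91%) became 18.6% without Ccdc and Akap. The share outside the gene body (2.26%) became 0% with gene body classes, by construction, 0.535% without Ccdc and Akap, 1.08% when at least 50% of a peak had to lie in the gene, and 5.73% without the 5 genes. The cause of the other moves was not tested. Median peaks per gene stayed between 3 and 4.5. The alternatives without the Dnah7 genes, without the 5 genes and by gene number were chosen after seeing the data. No paired analysis was possible because each group has 1 library. With no depth, strength or replicate, a missing peak cannot be told apart from low coverage, and the list is part of a longer numbered set.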
